A study of Oryctolagus cuniculus with 134 samples.

Results

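The mitral valve libraries of rabbits given a cholesterol diet together with cardiac irradiation (IR/CHT, n = 7) were compared with those of rabbits kept on chow (Ctrl, n = 6). These 13 libraries were chosen by their labels, tissue mitral valve and treatment Cholesterol+IR or Control, out of 134 RNA-seq libraries of the aorta and heart valves. All animals were male New Zealand White rabbits that entered a 16-week protocol at 12 weeks of age. IR/CHT rabbits ate a diet with 0.3% cholesterol, drank vitamin D2 (25000 U per day per 2.5 kg) during the first 15 days, and received X-rays once they had been on the diet for 8 weeks, 24 Gy in 3 fractions of 8 Gy. Ctrl rabbits ate standard chow and received neither vitamin D2 nor X-rays, so that diet, vitamin D2 and irradiation all differ between the groups and cannot be told apart in this contrast. The beam was aimed at the thoracic aorta together with the aortic valve, and the dose that reached the mitral leaflets is not given in the sources used here. The other mitral valve libraries, used beside them, came from rabbits on the cholesterol diet with vitamin D2 and no irradiation (CHT, n = 6) and from rabbits on a diet with 5% lard and vitamin D2 (Lard, n = 7). The comparison asks how the mitral valve transcriptome differs when dietary cholesterol is combined with irradiation of the heart.

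The mitral valve lies between the left atrium and the left ventricle. Its leaflets are built by valve interstitial cells, which lay down collagen, elastic fibres and proteoglycans, and are covered by endothelium. Cells take up cholesterol with lipoproteins and make it through the mevalonate pathway. Both routes are switched on by SREBP2 when sterols are scarce and switched off when sterols are plentiful. Sterol-loaded cells activate the liver X receptors (LXR), nuclear receptors that turn on the exporters of cholesterol, and macrophages that store cholesterol esters in lipid droplets become foam cells. Ionising radiation breaks DNA and activates p53, whose targets halt the cell cycle and repair damage.

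Total counts in the 13 libraries ranged from 15528347 to 23041138 with a median of 17823638, and at 1 CPM (a count scaled to library size) the smallest library held 15.3 counts, for a counting SD of 25.6%. IR/CHT libraries belonged to plate 1 (4) and plate 2 (3), and Ctrl libraries likewise (4 and 2). The step at which the plates were used is not given in the sources used here. The animal numbers in the deposited headers began with L08 for the 7 Ctrl rabbits of the series and with L28 for its 7 IR/CHT rabbits; what the numbers stand for is not given in the sources used here, and it cannot be told apart from treatment. The valve matrix genes VCAN, POSTN and FN1 were present in every library, VCAN at 7196, 8614 and 10034 CPM in Ctrl and 3084, 6701 and 8013 CPM in IR/CHT (lowest, median and highest library, as throughout). The mean log2 CPM of 21 tested heart muscle markers ran from 3.00 to 5.81 in IR/CHT and from 2.73 to 5.51 in Ctrl, so heart muscle transcripts were present to a varying degree in both groups. The Ctrl libraries differed in their endothelial markers, with an endothelial marker score of 2.88, 3.04 and 3.78 in L199, L156 and L262 against 5.47 to 5.67 in the other 3 and 4.69 to 5.91 in IR/CHT. The same 3 Ctrl libraries also had the lowest macrophage marker scores, 3.37 to 3.55 against 4.39 to 4.69; where a list with 4 or more calls changed by over 1.5 times without them, its count is given.

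IR/CHT and Ctrl mitral valves differed in 2715 of the 15322 genes tested (17.7%). Of these, 1696 were higher (11.1% of the genes tested) and 1019 lower (6.65%) in IR/CHT, at an edgeR adjusted p under 0.05 and a fold change above 1.5, the call used throughout; these shares are the background for the count of every list below. All IR/CHT libraries lay above all Ctrl libraries in 5.99% of the genes tested and below all of them in 4.12%. These shares are the background for each statement of no overlap with Ctrl. The median log2 fold change of all genes was -0.01. The cholesterol transporter gene ABCA1 and the macrophage genes GPNMB and MMP12 were among those with the smallest p that rose. SQLE, CYP51A1 and MSMO1, enzymes of cholesterol synthesis, were among those that fell. Without the 3 Ctrl libraries low in endothelium the count was 2262, with 1635 higher and 627 lower. On plate 1 alone 1891 genes were called and on plate 2 alone 1115. The mean log2 CPM of the genes called higher minus that of the genes called lower, a description that uses the calls themselves, lay between -2.48 and -1.99 in Ctrl and between -0.50 and 1.27 in IR/CHT. IR/CHT L175 was the least changed of the 7 and L179 the most, and leaving out each gave 3163 and 2310 calls.

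**Figure D1:**
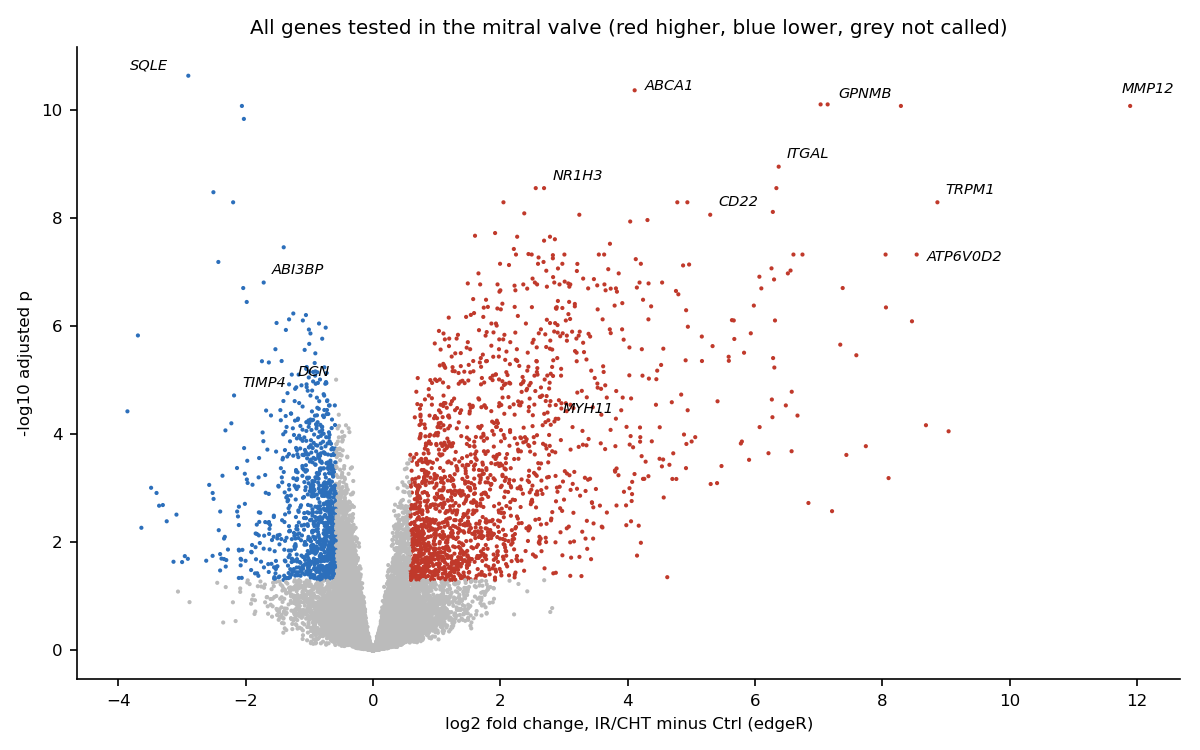
Each of the 15322 points is a gene, with the log2 fold change of IR/CHT minus Ctrl on the x axis and -log10 of the edgeR adjusted p on the y axis. The 1696 genes called higher (red) reach a log2 fold change of 11.89 at MMP12, and among the 1019 called lower (blue) the sterol gene SQLE stands at -2.90.

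Most tested genes that make or take up cholesterol fell. Of 26 genes listed for sterol synthesis and uptake, 19 could be tested, and 14 fell while none rose, beside 6.65% of all genes lower. The list median was -1.10 on the log2 scale, and 2 members had a log2 fold change above 0. With DESeq2, with its size factors and with only the groups compared, 1 member was called higher. The same held without IR/CHT L175, without IR/CHT L548 and without Ctrl L278. SQLE, the squalene epoxidase that commits squalene to sterols, measured 32.5, 39.7 and 51.5 CPM in Ctrl and 3.40, 5.68 and 6.57 CPM in IR/CHT (log2 fold -2.90, standard error 0.17, adjusted p = 2.3e-11 by edgeR). HMGCS1, a synthase early in the mevalonate pathway, measured 40.1, 55.5 and 63.8 CPM in Ctrl and 5.68, 12.9 and 15.4 CPM in IR/CHT (log2 fold -2.20, standard error 0.18, adjusted p = 5.07e-09 by edgeR). Every IR/CHT library lay below every Ctrl library for both genes. INSIG1, the endoplasmic reticulum protein that retains the SREBP complex and is itself an SREBP target, fell from 22.1, 28.6 and 41.9 CPM to 5.09, 6.72 and 11.998 CPM (log2 fold -2.04, standard error 0.22, adjusted p = 1.96e-07 by edgeR), again without overlap. The later enzymes MSMO1, CYP51A1 and FDFT1 fell by 2.51, 2.03 and 1.98 on the log2 scale, and ACAT2, FDPS, NSDHL, SC5D and LSS fell by 0.60 to 1.10. The 5 tested members that did not pass were STARD4, PMVK, MVK, LBR and SREBF2, the gene of SREBP2 itself (-0.59, edgeR adjusted p = 0.342).

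LXR targets moved the other way. Of 13 listed genes 8 were tested, and 4 rose (11.1% of all genes higher) with a list median of 0.997. ABCA1, the transporter that hands cholesterol to apolipoprotein A-I, rose from 40.8, 57.4 and 87.6 CPM in Ctrl to 872, 1081 and 1287 CPM in IR/CHT (log2 fold 4.11, standard error 0.25, adjusted p = 4.28e-11 by edgeR). NR1H3, which encodes LXR alpha, measured 5.87, 7.87 and 8.91 CPM in Ctrl and 30.3, 51.1 and 69.3 CPM in IR/CHT (log2 fold 2.69, standard error 0.22, adjusted p = 2.77e-09 by edgeR). PLTP, the phospholipid transfer protein, rose from 73.6, 88.4 and 128 CPM to 301, 465 and 915 CPM (log2 fold 2.60, standard error 0.32, adjusted p = 1.35e-06 by edgeR). None of the 3 genes overlapped between the groups, and the lowest IR/CHT library for ABCA1 was far above the highest Ctrl library. LPCAT3, which puts polyunsaturated chains into phospholipids, also rose (log2 fold 1.35, standard error 0.22, adjusted p = 6.01e-05 by edgeR). MYLIP, an LXR target that encodes a ubiquitin ligase, measured 94.6, 118 and 139.8 CPM in Ctrl and 99.5, 162 and 193.8 CPM in IR/CHT and did not pass (0.36, edgeR adjusted p = 0.114), and neither did SMPDL3A, NR1H2 and SCARB1. In the CHT rabbits, which had the same diet without X-rays, SQLE stood at 4.72, 7.21 and 10.1 CPM and ABCA1 at 595, 841 and 1011 CPM; in the Lard rabbits they stood at 24.8, 31.1 and 41.3 CPM and 32.0, 82.8 and 92.8 CPM. The Lard values lay in or near the Ctrl range and the CHT values in or near the IR/CHT range.

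**Figure D2:**
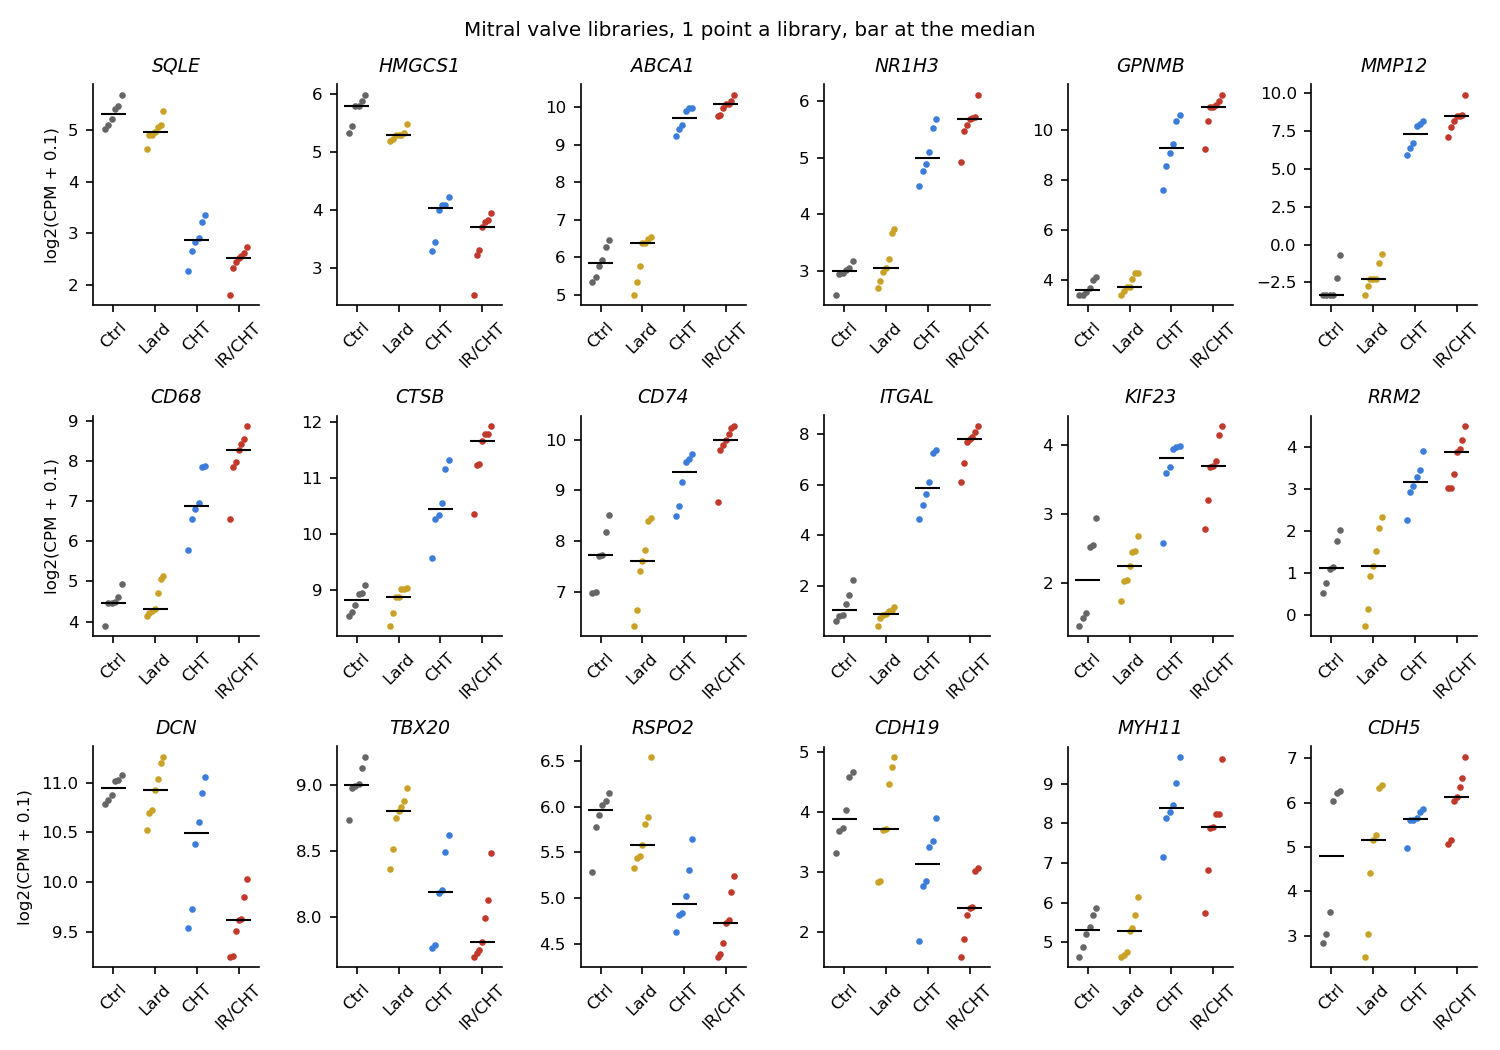
Each panel shows 1 gene in the 26 mitral valve libraries as log2(CPM + 0.1), with a point for each library of Ctrl (6), Lard (7), CHT (6) and IR/CHT (7) and a bar at the group median. SQLE and HMGCS1 are low and ABCA1, NR1H3, GPNMB, CD68 and CTSB high in all IR/CHT libraries relative to Ctrl, DCN and TBX20 are lower without overlap, and the endothelial gene CDH5 overlaps between the groups.

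Foam cell genes rose in nearly every member tested. Of 20 listed genes for foam cells and lipid-laden macrophages, 16 were tested and 14 rose, with none lower and a list median of 2.05. GPNMB, a glycoprotein of lysosome-rich macrophages, rose from 10.5, 11.96 and 17.2 CPM to 599, 1959.6 and 2751 CPM (log2 fold 7.14, standard error 0.46, adjusted p = 7.81e-11 by edgeR). LIPA, the lysosomal acid lipase that frees cholesterol from LDL esters, measured 21.5, 33.7 and 36.8 CPM in Ctrl and 161.1, 285 and 470.0 CPM in IR/CHT (log2 fold 3.24, standard error 0.28, adjusted p = 8.62e-09 by edgeR). PLIN2, which coats lipid droplets, measured 23.4, 28.5 and 31.6 CPM in Ctrl and 66.5, 105 and 154.8 CPM in IR/CHT (log2 fold 1.92, standard error 0.17, adjusted p = 1.88e-08 by edgeR). The groups did not overlap for these genes. Scavenger receptors that take up modified LDL rose as well, MSR1 from 4.15, 9.19 and 18.5 CPM to 45.2, 48.8 and 103 CPM (log2 fold 2.57, standard error 0.35, adjusted p = 4.4e-06 by edgeR), and OLR1, MARCO and CD36 had log2 fold changes of 2.24, 4.28 and 1.88; CD36 was no longer called without the 3 Ctrl libraries low in endothelium. SPP1 (osteopontin), a secreted phosphoprotein of macrophages and bone, rose from 86.9, 117 and 144 CPM to 323, 483 and 764 CPM (log2 fold 2.14, standard error 0.31, adjusted p = 1.11e-05 by edgeR). NPC1 and NPC2, which move cholesterol out of the lysosome, and SOAT1, which esterifies it, rose by 0.72, 1.68 and 1.18. The remaining tested members LPL and CHI3L1 did not pass (0.67 and 0.09, edgeR adjusted p = 0.408 and 0.815).

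Macrophage markers rose in 16 of 20 tested genes (24 listed, median 2.01), with none lower. CD68, a glycoprotein of macrophage lysosomes, measured 14.7, 22.1 and 30.5 CPM in Ctrl and 93.5, 314 and 476 CPM in IR/CHT (log2 fold 3.72, standard error 0.35, adjusted p = 2.97e-08 by edgeR). ITGAM, the integrin chain of complement receptor 3, rose from 4.43, 6.67 and 11.1 CPM to 71.9, 218 and 272.6 CPM (log2 fold 4.78, standard error 0.40, adjusted p = 5.07e-09 by edgeR). CSF1R, the receptor that keeps macrophages alive, measured 55.3, 88.0 and 126 CPM in Ctrl and 138, 241.5 and 308 CPM in IR/CHT (log2 fold 1.48, standard error 0.28, adjusted p = 0.000255 by edgeR). In all 3 genes every IR/CHT library lay above every Ctrl library. CD163 and MRC1, scavenger and mannose receptors of resident macrophages, overlapped widely between the groups. MRC1 measured 60.5, 201.4 and 374 CPM in Ctrl and 104, 205 and 295 CPM in IR/CHT (log2 fold 0.05, standard error 0.44, adjusted p = 0.949 by edgeR). CD163 had a log2 fold change of 0.53 (edgeR adjusted p = 0.393). In the 3 Ctrl libraries low in endothelium MRC1 measured 60.5 to 106 CPM and CD163 13.4 to 17.4 CPM. In the other 3 Ctrl libraries MRC1 measured 297 to 374 CPM, above every IR/CHT library. CD163 measured 50.3 to 58.9 CPM there, within its IR/CHT range of 27.5 to 79.9 CPM. LYVE1 and LYZ were likewise not called. C1QA, a subunit of complement C1q made by macrophages, rose in the full set (0.95, edgeR adjusted p = 0.0272), and lost the call without Ctrl L199, without Ctrl L156 and without IR/CHT L175 (edgeR adjusted p = 0.0637, 0.0642 and 0.0575). In whole-tissue RNA a larger number of macrophages and more transcript per macrophage cannot be told apart, and the same holds for each cell type below.

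Other genes with a small p rose from near 0. MMP12, the macrophage elastase, was at 0 in 4 of 6 Ctrl libraries with at most 8 counts, and reached 137, 360.0 and 970.1 CPM in IR/CHT (edgeR adjusted p = 8.34e-11); its fitted log2 fold change of 11.89 rests on these few Ctrl reads. TRPM1, a cation channel first known from melanocytes and the retina, measured 0, 0.159 and 0.713 CPM in Ctrl and 37.1, 133 and 238.04 CPM in IR/CHT (log2 fold 8.87, standard error 0.74, adjusted p = 5.07e-09 by edgeR). NYAP2, an adaptor of PI3-kinase signalling, measured 0.160, 0.277 and 0.637 CPM in Ctrl and 31.0, 101 and 159.1 CPM in IR/CHT (log2 fold 8.29, standard error 0.55, adjusted p = 8.34e-11 by edgeR). ANO4, of the anoctamin family of calcium-activated channels and scramblases, rose from 0.502, 0.956 and 1.08 CPM to 50.3, 136 and 151.2 CPM (log2 fold 7.03, standard error 0.46, adjusted p = 7.81e-11 by edgeR). These genes were close to 0 in chow-fed valves and abundant in each IR/CHT valve. CADM1, an immunoglobulin-type adhesion molecule, MPP1, a membrane scaffold, and MCOLN2, an endolysosomal cation channel, rose by 2.56, 2.38 and 4.94, each without overlap.

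Lysosomal genes rose in 14 of 17 tested (28 listed, median 1.53) and none fell. ATP6V0D2, a subunit of the proton pump found in osteoclasts and macrophages, measured 0, 0.0590 and 0.320 CPM in Ctrl and 17.8, 29.2 and 98.2 CPM in IR/CHT (log2 fold 8.54, standard error 0.83, adjusted p = 4.7e-08 by edgeR). CTSB, a cysteine cathepsin, measured 369.9, 456 and 548.3 CPM in Ctrl and 1309, 3242 and 3937 CPM in IR/CHT (log2 fold 2.69, standard error 0.25, adjusted p = 2.6e-08 by edgeR). GUSB, the lysosomal glucuronidase, rose from 16.1, 28.3 and 35.4 CPM to 79.6, 156.5 and 221 CPM (log2 fold 2.54, standard error 0.27, adjusted p = 1.55e-07 by edgeR). The widely expressed pump subunits ATP6V1A, ATP6V1B2 and ATP6V0D1 rose less, by 1.54, 1.53 and 0.74, while LAMP2, SCARB2 and TFEB did not pass. Iron and heme genes rose in 7 of 15 tested (20 listed, median 0.99), and in 3 of 15 on plate 2 alone. HMOX1, which opens the heme ring, measured 6.05, 7.79 and 18.1 CPM in Ctrl and 34.2, 46.3 and 71.6 CPM in IR/CHT (log2 fold 2.30, standard error 0.31, adjusted p = 5.42e-06 by edgeR). FLVCR2, a membrane transporter of the heme exporter family, rose from 0.446, 1.11 and 1.66 CPM to 10.1, 35.4 and 54.4 CPM (log2 fold 4.97, standard error 0.50, adjusted p = 7.19e-08 by edgeR). TFRC, the transferrin receptor, and FTL, the ferritin light chain, rose by 1.28 and 2.13, and SLC40A1, the iron exporter ferroportin, was not called (-0.17, edgeR adjusted p = 0.537).

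Genes of antigen presentation rose in 5 of 7 tested (14 listed, median 2.15). CD74, the invariant chain that guides MHC class II molecules, measured 125, 211 and 365 CPM in Ctrl and 436, 1025 and 1245 CPM in IR/CHT (log2 fold 2.15, standard error 0.34, adjusted p = 3.15e-05 by edgeR). CTSS, the cathepsin that trims the invariant chain, measured 5.02, 13.7 and 24.3 CPM in Ctrl and 132, 287 and 473 CPM in IR/CHT (log2 fold 4.33, standard error 0.46, adjusted p = 1.61e-07 by edgeR). HLA-DRA and HLA-DMA rose by 2.45 and 2.98, and CIITA, the master regulator of these genes, by 1.91. IR/CHT L175 stood apart in this list, with a score of 4.10 against 5.28 to 5.79 in the other 6 and a Ctrl median of 3.32. Leukocyte integrins and adhesion molecules rose in 8 of 13 tested (16 listed) and fell in 1. ITGAL, the alpha chain of LFA-1, went from 1.47, 2.04 and 4.65 CPM to 68.6, 222 and 320.4 CPM (log2 fold 6.37, standard error 0.48, adjusted p = 1.11e-09 by edgeR), and ITGAX and ITGAD, its relatives on myeloid cells, rose by 3.82 and 3.58. CD44, the hyaluronan receptor, measured 202, 224 and 256.97 CPM in Ctrl and 279.1, 625 and 658 CPM in IR/CHT (log2 fold 1.31, standard error 0.17, adjusted p = 1.69e-06 by edgeR). The endothelial adhesion molecules ICAM1, SELE, SELP and PECAM1 were not called, ICAM1 at 0.93 (edgeR adjusted p = 0.0558), and CD34, carried by endothelium and stromal cells, fell (log2 fold -0.80, standard error 0.15, adjusted p = 0.000338 by edgeR), a call lost on plate 2 alone.

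Markers of lymphocytes were few and uneven. Of 22 T and NK cell genes 6 were tested, and 3 rose: CD28, a costimulatory receptor, from 0, 0.0887 and 0.255 CPM to 2.89, 10.2 and 14.7 CPM (log2 fold 6.30, standard error 0.66, adjusted p = 1.36e-07 by edgeR), IL7R, the interleukin 7 receptor (2.91), and CD5 (4.20). LCK, ZAP70 and THEMIS, which serve signalling from the T cell receptor, had log2 fold changes of 0.28 (THEMIS) to 1.54 (LCK) and did not pass (edgeR adjusted p = 0.0531, 0.131 and 0.614). Of 17 B and plasma cell genes 8 were tested and 4 rose, against 2 of 7 on plate 2 alone. CD22, a sialic acid receptor best known from B cells, measured 0.509, 1.17 and 1.60 CPM in Ctrl and 19.5, 45.1 and 68.9 CPM in IR/CHT (log2 fold 5.30, standard error 0.46, adjusted p = 8.62e-09 by edgeR), and JCHAIN, the joining chain of polymeric antibodies, 0.772, 1.09 and 1.59 CPM in Ctrl and 5.22, 13.9 and 57.1 CPM in IR/CHT (log2 fold 4.22, standard error 0.55, adjusted p = 2.66e-06 by edgeR). Both were free of overlap, whereas PAX5 and BLK, which define the B lineage, did not pass (-0.81, edgeR adjusted p = 0.262, and 0.59, with a larger p). Neutrophil genes were tested for 9 of 24 listed and 4 rose, among them ITGB2 (4.14) and the oxidase subunit NCF4 (3.41), which macrophages also carry, and the gelatinase MMP9 (3.30). CSF3R, CXCR1, FPR1 and LTF were tested and did not pass; CSF3R, the receptor for G-CSF, stayed between 0 and 0.556 CPM in all 13 libraries. The neutrophil list median of 1.71 moved between 1.10 with plate as a covariate and 3.19 on plate 2 alone.

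Cytokine genes were tested for 13 of 40 listed and 5 rose (median 1.45), beside 11.1% of all genes higher; 2 rose on plate 1 alone and 3 on plate 2 alone. IL1RN, the antagonist of the interleukin 1 receptor, measured 0.547, 1.34 and 1.96 CPM in Ctrl and 5.11, 10.8 and 16.2 CPM in IR/CHT (log2 fold 3.07, standard error 0.36, adjusted p = 5.96e-07 by edgeR). CCL19, a chemokine of lymphoid tissue, measured 0.382, 0.738 and 1.06 CPM in Ctrl and 1.19, 2.07 and 3.54 CPM in IR/CHT (log2 fold 1.48, standard error 0.36, adjusted p = 0.00285 by edgeR). The interferon-induced chemokines CXCL9 and CXCL10 and the endothelial CX3CL1 rose by 2.24, 3.46 and 1.45; CXCL10 overlapped in 2 IR/CHT libraries and was not called without the 3 Ctrl libraries low in endothelium. TNF and CCL2 stayed just outside the threshold (2.14 and 1.14, edgeR adjusted p = 0.0514 and 0.0584), and both passed without IR/CHT L175 (edgeR adjusted p = 0.0303 and 0.0269), as did TNF without Ctrl L241 and CCL2 without Ctrl L278 (edgeR adjusted p = 0.0154 and 0.0123). Among complement genes the receptors for the anaphylatoxins rose, C5AR1 from 1.96, 3.66 and 5.15 CPM to 16.1, 40.0 and 51.1 CPM (log2 fold 3.38, standard error 0.37, adjusted p = 1.99e-07 by edgeR) and C3AR1 from 0.684, 1.41 and 2.86 CPM to 6.87, 10.1 and 14.1 CPM (log2 fold 2.69, standard error 0.43, adjusted p = 4.18e-05 by edgeR), as did CFP (properdin) and C2, whereas the proteases C1R and C1S and the inhibitor SERPING1 were not called (0.36, 0.13 and -0.01) and CLU (clusterin) fell (log2 fold -0.82, standard error 0.26, adjusted p = 0.0226 by edgeR). No complement gene was called lower on either plate alone, without the 3 Ctrl libraries low in endothelium, or without IR/CHT L179, Ctrl L262 or Ctrl L278. In all, 4 of 10 tested complement genes rose and 1 fell (23 listed); on plate 2 alone 2 rose. Interferon response genes rose in 7 of 16 tested (28 listed, median 1.01). Without the 3 Ctrl libraries low in endothelium 4 rose with a median of 1.63, on plate 1 alone 4 with 0.60 and on plate 2 alone 4 with 1.60. IRF8, a transcription factor of the myeloid lineage, rose from 2.58, 4.80 and 11.04 CPM to 12.998, 34.9 and 82.6 CPM (log2 fold 2.96, standard error 0.47, adjusted p = 3.33e-05 by edgeR), and OAS2 and IRF7 by 2.74 and 2.60. IFI44, IFI44L, IFIT2 and OAS3 did not pass.

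Cell division genes rose in 28 of 32 tested and none fell (46 listed, median 1.75, beside 11.1% of all genes higher). The count was 19 of 32 without the 3 Ctrl libraries low in endothelium, 23 on plate 1 alone and 9 on plate 2 alone, and none fell in any of these. NCAPH, a subunit of the condensin that compacts chromosomes, measured 10.3, 13.9 and 21.6 CPM in Ctrl and 27.6, 54.4 and 62.4 CPM in IR/CHT (log2 fold 1.86, standard error 0.24, adjusted p = 2.29e-06 by edgeR). RRM2, the ribonucleotide reductase subunit that supplies DNA synthesis, measured 1.34, 2.08 and 3.99 CPM in Ctrl and 8.10, 14.8 and 22.9 CPM in IR/CHT (log2 fold 2.53, standard error 0.39, adjusted p = 2.82e-05 by edgeR). CDK1, the kinase that drives entry into mitosis, rose from 0.182, 1.01 and 1.82 CPM to 2.61, 4.95 and 8.75 CPM (log2 fold 2.31, standard error 0.49, adjusted p = 0.000926 by edgeR). Their groups did not overlap. KIF23, a kinesin of cytokinesis, and TOP2A, a topoisomerase, rose by 1.54 and 1.41 with 6 of 7 IR/CHT libraries above every Ctrl library, and PLK1, CDC6 and PCNA did not pass. TOP2A and BUB1 were not called without the 3 Ctrl libraries low in endothelium. Of the genes listed as p53 targets or with DNA damage, 5 of 20 tested rose (32 listed, median 0.36); the count was 3 on plate 2 alone and 5 to 7 when single libraries were left out, 7 being without Ctrl L278. TIGAR, which diverts glucose toward NADPH, measured 1.60, 3.20 and 3.95 CPM in Ctrl and 9.93, 15.8 and 28.3 CPM in IR/CHT (log2 fold 2.496, standard error 0.29, adjusted p = 4.43e-07 by edgeR). SESN2, a stress-induced brake on mTORC1, rose from 1.01, 1.93 and 2.99 CPM to 2.16, 6.47 and 12.8 CPM (log2 fold 1.77, standard error 0.39, adjusted p = 0.00123 by edgeR). PLK3, BAX and CDKN2B, a cell cycle inhibitor that also responds to TGF-beta, rose by 1.26 (PLK3) to 1.95 (CDKN2B). The other 15 tested members were not called; GADD45A and ZMAT3 were under the fold limit (0.54 and 0.46, edgeR adjusted p = 0.0072 and 0.0124), and XPC, DDB2, POLH and BTG2, of DNA repair and growth arrest, had log2 fold changes of 0.15, 0.04, 0.04 and -0.01. EDA2R, a p53-induced receptor, measured 13.3, 17.0 and 21.4 CPM in Ctrl and 18.3, 22.2 and 27.4 CPM in IR/CHT with 5 of 7 IR/CHT libraries above every Ctrl library and did not pass (edgeR adjusted p = 0.0683).

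**Figure D3:**
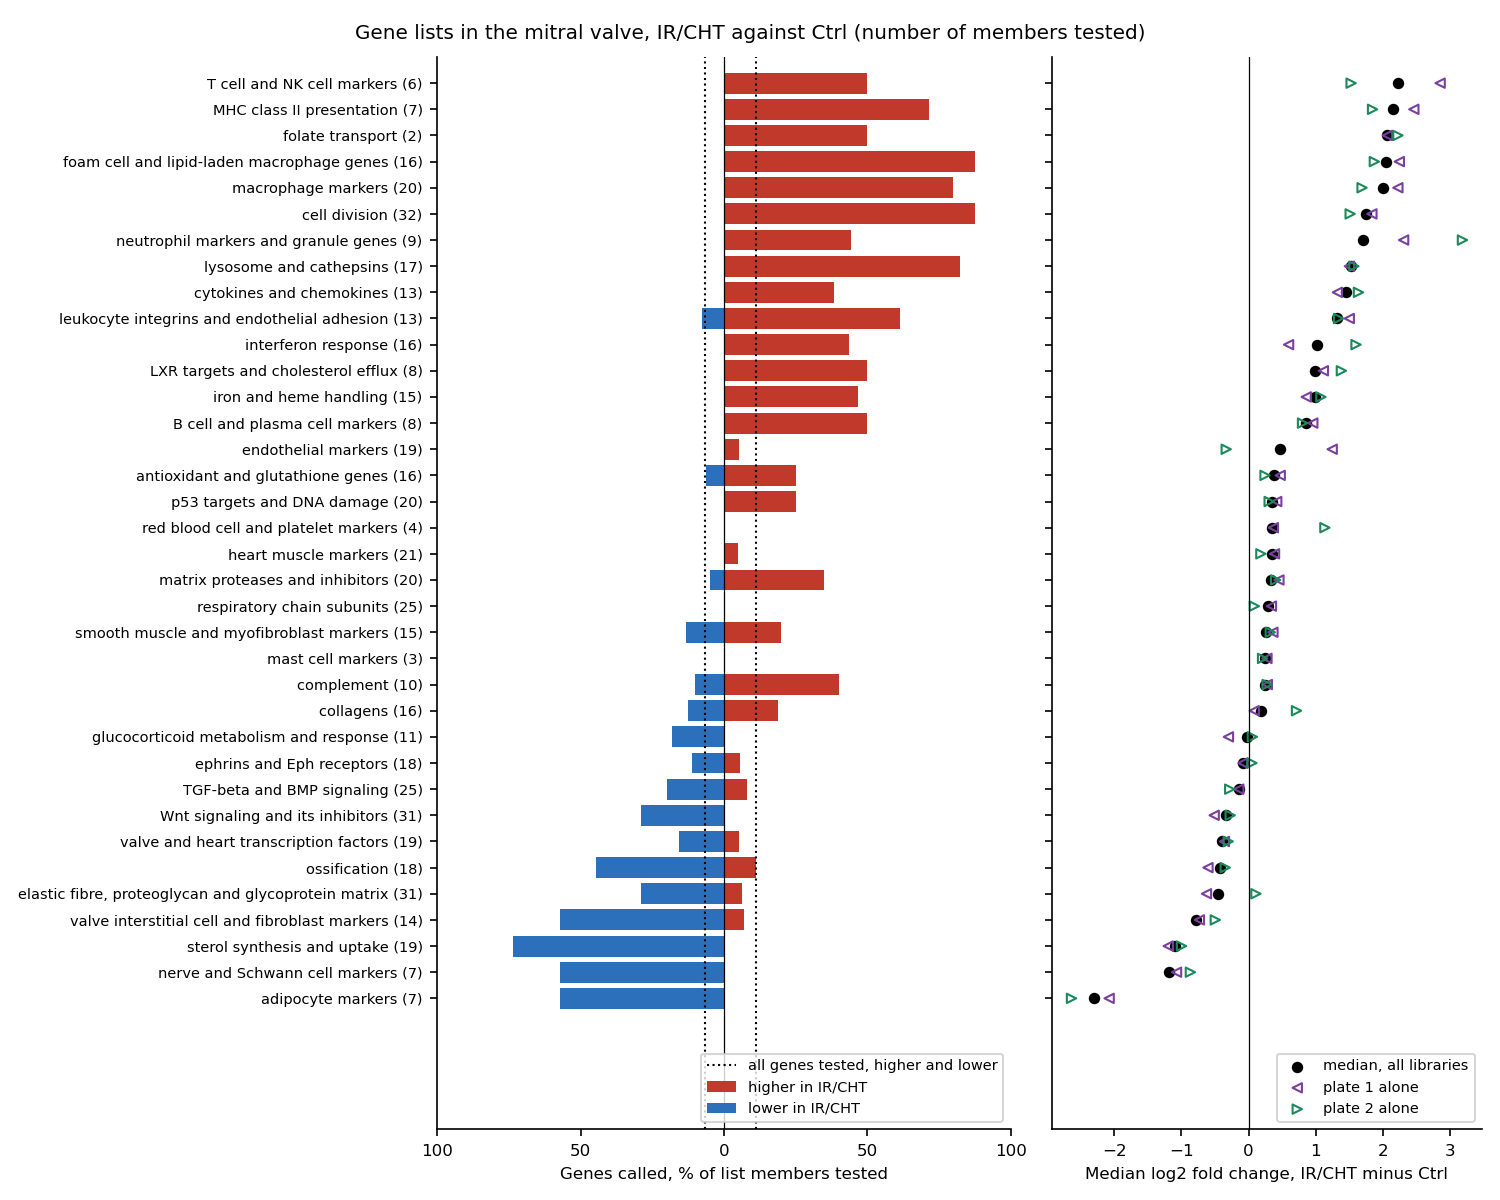
Gene lists in order of their median log2 fold change (IR/CHT minus Ctrl), with the number of members tested. The left panel gives the percentage of tested members called higher (red, right) and lower (blue, left) with dotted lines at 11.1% and 6.65%, the shares of all genes; the right panel gives the list median over all libraries (black) and on each plate alone, which for endothelial markers lie on opposite sides of 0.

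Markers of valve interstitial cells and fibroblasts fell in 8 of 14 tested and rose in 1 (18 listed, median -0.79, beside 6.65% of all genes lower and 11.1% higher). On plate 2 alone 5 fell, with a median of -0.50. DCN (decorin), the proteoglycan that binds collagen fibrils, fell from 1769.6, 1973 and 2153 CPM to 609, 787 and 1046 CPM (log2 fold -1.32, standard error 0.19, adjusted p = 1.19e-05 by edgeR). DPT (dermatopontin), which helps fibrils assemble, measured 513, 829 and 933 CPM in Ctrl and 357, 375 and 511 CPM in IR/CHT (log2 fold -1.03, standard error 0.15, adjusted p = 1.56e-05 by edgeR). DDR2, a collagen receptor, measured 160.9, 176.8 and 199.3 CPM in Ctrl and 88.0, 95.5 and 121 CPM in IR/CHT (log2 fold -0.85, standard error 0.10, adjusted p = 8.9e-07 by edgeR). None of these genes overlapped between the groups. VIM, LUM, FAP, THY1 and PDGFRB did not pass, and S100A4, carried by fibroblasts and by leukocytes, rose (log2 fold 1.52, standard error 0.27, adjusted p = 0.000165 by edgeR). ABI3BP, an extracellular matrix protein, was among the 10 genes with the smallest p among those that fell, from 1244, 1289 and 1824 CPM to 266.4, 452 and 550.3 CPM (log2 fold -1.72, standard error 0.18, adjusted p = 1.55e-07 by edgeR).

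Elastic fibre, proteoglycan and glycoprotein genes fell in 9 of 31 tested and rose in 2 (38 listed, median -0.46); on plate 2 alone 2 fell and none rose and the median was 0.11, on the other side of 0. The median was -0.19 without the 3 Ctrl libraries low in endothelium and -0.26 without Ctrl L262, and none rose on plate 1 alone. MFAP5, a microfibril protein, measured 439, 598 and 821 CPM in Ctrl and 231.98, 307 and 404 CPM in IR/CHT (log2 fold -1.003, standard error 0.18, adjusted p = 0.000174 by edgeR). HAS2, which makes hyaluronan, measured 61.7, 73.2 and 112 CPM in Ctrl and 22.9, 38.6 and 56.5 CPM in IR/CHT (log2 fold -1.04, standard error 0.20, adjusted p = 0.000465 by edgeR). OGN, ASPN and SPARC fell by 1.08, 1.20 and 0.63. The matrix genes VCAN, FN1 and POSTN were not called: VCAN, the large proteoglycan of the spongiosa, had a log2 fold change of -0.48 (edgeR adjusted p = 0.041), under the fold limit, FN1 of -0.04 and POSTN of -0.05. Collagens did not move as a group, with 3 of 16 tested higher and 2 lower (23 listed). COL4A1 and COL4A2, the main chains of basement membrane collagen, rose by 1.98 and 2.01 and COL5A3 by 1.99. These calls were not stable: no collagen was higher on plate 1 alone, and 1 was with only the groups compared and without any 1 of Ctrl L183, L199, L156, L241 and L278 and IR/CHT L179 and L195. COL12A1, which sits on the surface of fibrils, fell from 1629, 1767 and 2280.3 CPM to 592, 933 and 1018 CPM (log2 fold -1.11, standard error 0.17, adjusted p = 3.06e-05 by edgeR), and COL21A1 fell by 0.75, a call lost without the 3 Ctrl libraries low in endothelium. The fibrillar chains COL1A1, COL1A2 and COL3A1 overlapped, with COL1A1 at 565.9, 1413 and 3832 CPM in Ctrl and 815, 1951 and 11344 CPM in IR/CHT (log2 fold 1.04, standard error 0.60, adjusted p = 0.212 by edgeR); COL1A1 was called higher without the same 3 libraries.

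Matrix proteases and their inhibitors rose in 7 of 20 tested and fell in 1 (29 listed), against 3 higher and 2 lower without the 3 Ctrl libraries low in endothelium and 2 higher and 1 lower on plate 2 alone; 2 were lower on plate 1 alone and without IR/CHT L195. Beside MMP12, PLAU (urokinase), which activates plasminogen, measured 10.9, 13.01 and 18.0 CPM in Ctrl and 41.5, 91.8 and 140.1 CPM in IR/CHT (log2 fold 2.78, standard error 0.26, adjusted p = 2.2e-08 by edgeR), and its receptor PLAUR rose by 2.71. TIMP4, an inhibitor of metalloproteinases, fell from 17.0, 28.2 and 42.2 CPM to 3.40, 6.98 and 11.4 CPM (log2 fold -2.18, standard error 0.33, adjusted p = 1.91e-05 by edgeR) without overlap. TIMP1 was higher by less than the fold limit (log2 fold 0.42, standard error 0.13, adjusted p = 0.0145 by edgeR), and MMP2, the constitutive gelatinase, was not called (-0.19, edgeR adjusted p = 0.269).

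Wnt genes, whose products guide valve growth and remodelling, fell in 9 of 31 tested and none rose (40 listed, median -0.33, beside 6.65% of all genes lower). On plate 1 alone 7 fell with a median of -0.51 and on plate 2 alone 3 fell. The fallen genes included both activators and inhibitors. RSPO2, an R-spondin that strengthens Wnt signals, measured 38.9, 62.4 and 70.7 CPM in Ctrl and 20.4, 26.4 and 37.9 CPM in IR/CHT (log2 fold -1.14, standard error 0.20, adjusted p = 0.000121 by edgeR). FZD4, a receptor, measured 77.9, 85.5 and 113 CPM in Ctrl and 38.9, 45.8 and 61.0 CPM in IR/CHT (log2 fold -0.87, standard error 0.14, adjusted p = 3.23e-05 by edgeR). FRZB, a secreted inhibitor, fell from 262.2, 302 and 445 CPM to 105, 189.1 and 209 CPM (log2 fold -0.97, standard error 0.18, adjusted p = 0.000218 by edgeR). The ligand WNT5A, the R-spondin RSPO3, the inhibitors DKK2, SFRP4 and SFRP5 and the nuclear partner LEF1 fell by 0.67 to 1.91. AXIN2, a common readout of canonical Wnt activity, was lower by less than the limit (log2 fold -0.51, standard error 0.15, adjusted p = 0.0134 by edgeR). Of 25 tested TGF-beta and BMP genes 5 fell and 2 rose (31 listed), beside 6.65% of all genes lower and 11.1% higher. The lower calls were 3 with DESeq2 size factors, with only the groups compared and on each plate alone, 2 without Ctrl L156, and 3 without any 1 of Ctrl L199 and L278 and IR/CHT L179, L237, L258 and L274. The receptors BMPR1A, BMPR1B and TGFBR3 fell by 0.69, 1.55 and 0.68, and ID2 and the endothelial receptor ACVRL1 rose (1.04 and 1.69), while the ligands TGFB2, TGFB3 and INHBA did not pass.

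Ossification genes did not move in one direction: 8 of 18 tested fell and 2 rose (25 listed, median -0.42). The lower calls were 3 without the 3 Ctrl libraries low in endothelium, 4 on each plate alone, and 5 with only the groups compared, without Ctrl L156 and without Ctrl L241. RUNX2, the transcription factor of osteoblasts, rose at a low level, from 0.293, 0.732 and 1.27 CPM to 0.738, 1.996 and 3.16 CPM (log2 fold 1.397, standard error 0.42, adjusted p = 0.0146 by edgeR), and IBSP, a bone matrix sialoprotein, from 0, 0.127 and 0.456 CPM to 0.454, 1.80 and 4.01 CPM (log2 fold 3.56, standard error 0.82, adjusted p = 0.00209 by edgeR). The ligands BMP2 and BMP4 fell by 1.04 and 0.70, BMP2 losing the call without the 3 Ctrl libraries low in endothelium. TNFRSF11B (osteoprotegerin), a decoy receptor that restrains osteoclasts, measured 173.4, 212 and 249.1 CPM in Ctrl and 67.6, 109 and 157.5 CPM in IR/CHT (log2 fold -0.96, standard error 0.15, adjusted p = 3.77e-05 by edgeR), and ENPP1, which makes the mineralisation inhibitor pyrophosphate, measured 57.7, 76.9 and 92.2 CPM in Ctrl and 32.7, 44.7 and 62.1 CPM in IR/CHT (log2 fold -0.77, standard error 0.16, adjusted p = 0.000869 by edgeR). ALPL, the alkaline phosphatase of mineralising cells, and MGP, a calcification inhibitor, were not called (-0.13 and -0.31). Transcription factors of valve and heart fell in 3 of 19 tested and rose in 1 (30 listed), 21.1% called beside 17.7% of all genes; without IR/CHT L548 5 fell. TBX20, required for valve formation, measured 425, 511 and 593 CPM in Ctrl and 207, 224 and 358 CPM in IR/CHT (log2 fold -1.05, standard error 0.14, adjusted p = 6.14e-06 by edgeR) without overlap, MEIS1 and TCF21 fell by 0.82 and 0.77, and MEF2C, shared with macrophages and lymphocytes, rose by 1.13, a call lost on plate 2 alone. GATA4, NKX2-5, TBX5 and HAND2 were not called. Ephrins and Eph receptors gave 1 higher and 2 lower of 18 tested (20 listed), 16.7% called against 17.7% of all genes, namely EPHA5 (1.24), EPHB1 (-0.95) and EPHA7 (-0.93); each of the 3 lost the call when a single library was left out.

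Smooth muscle and myofibroblast markers rose in 3 of 15 tested and fell in 2 (20 listed, median 0.26, and 0.47 without Ctrl L262). ACTA2, alpha smooth muscle actin, measured 36.6, 83.0 and 112 CPM in Ctrl and 81.4, 215 and 301 CPM in IR/CHT (log2 fold 1.43, standard error 0.33, adjusted p = 0.00191 by edgeR). MYH11, the smooth muscle myosin heavy chain, measured 24.8, 39.4 and 58.6 CPM in Ctrl and 52.9, 242.4 and 795 CPM in IR/CHT (log2 fold 2.85, standard error 0.47, adjusted p = 5.8e-05 by edgeR). ACTG2, an actin of visceral smooth muscle, rose from 1.01, 1.86 and 7.76 CPM to 5.16, 18.1 and 38.1 CPM (log2 fold 2.67, standard error 0.44, adjusted p = 6.79e-05 by edgeR). For each, 6 of 7 IR/CHT libraries lay above every Ctrl library. DES, LMOD1, SMTN and MYOCD did not pass, and RGS5 and SYNPO2 fell by 1.05 and 0.64, calls that were both lost without the 3 Ctrl libraries low in endothelium, without IR/CHT L179, without IR/CHT L237 and on plate 2 alone. Endothelial markers gave 1 call, ROBO4, in 19 tested (25 listed), which was lost without the 3 Ctrl libraries low in endothelium. Their median was 1.25 on plate 1, to which all 3 of those libraries belonged, and -0.33 on plate 2. CDH5, the cadherin of endothelial junctions, measured 7.07, 38.5 and 77.0 CPM in Ctrl and 33.7, 69.4 and 131 CPM in IR/CHT (log2 fold 0.85, standard error 0.57, adjusted p = 0.295 by edgeR), and VWF 13.8, 96.2 and 213 CPM in Ctrl and 129, 210.5 and 241.6 CPM in IR/CHT (log2 fold 0.88, standard error 0.51, adjusted p = 0.215 by edgeR). Heart muscle markers gave 1 call in 21 tested (30 listed), NPPA, the natriuretic peptide of the atria (log2 fold 3.27, standard error 1.19, adjusted p = 0.0422 by edgeR), which rested on single libraries: it stood at 1.02, 8.08 and 22.5 CPM in Ctrl and 4.85, 37.7 and 502 CPM in IR/CHT and lost the call when any of 6 libraries was left out, with a log2 fold change of 1.72 (edgeR adjusted p = 0.233) without IR/CHT L548.

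Schwann cell and nerve markers fell in 4 of 7 tested and none rose (13 listed, median -1.19). This count rested on the libraries used: 1 fell and 1 rose without the 3 Ctrl libraries low in endothelium, 1 fell on plate 1 alone, and on plate 2 alone none fell and 1 rose. CDH19, a cadherin of Schwann cells, measured 9.86, 14.7 and 25.2 CPM in Ctrl and 2.89, 5.17 and 8.23 CPM in IR/CHT (log2 fold -1.64, standard error 0.36, adjusted p = 0.00127 by edgeR), ERBB3, their neuregulin receptor, measured 81.6, 86.3 and 181.1 CPM in Ctrl and 18.2, 44.7 and 72.6 CPM in IR/CHT (log2 fold -1.19, standard error 0.32, adjusted p = 0.00713 by edgeR), and S100B fell by 1.39. CDH19 and ERBB3 did not overlap, but ERBB3 and S100B were not called without the 3 Ctrl libraries low in endothelium. Adipocyte markers fell in 4 of 7 tested (18 listed, median -2.30), in 2 of 7 on plate 1 alone and in 3 of 6 with only the groups compared. CIDEA and CIDEC, proteins of the lipid droplet, LEP (leptin) and THRSP fell by 2.57, 2.30, 3.36 and 3.30, whereas ADIPOQ (adiponectin) and PPARG did not pass (-1.24 and -0.17, edgeR adjusted p = 0.133 and 0.838). Red cell and platelet markers (4 tested of 15) and mast cell markers (3 tested of 8) gave no call. Their part in the other results was not tested.

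**Figure D4:**
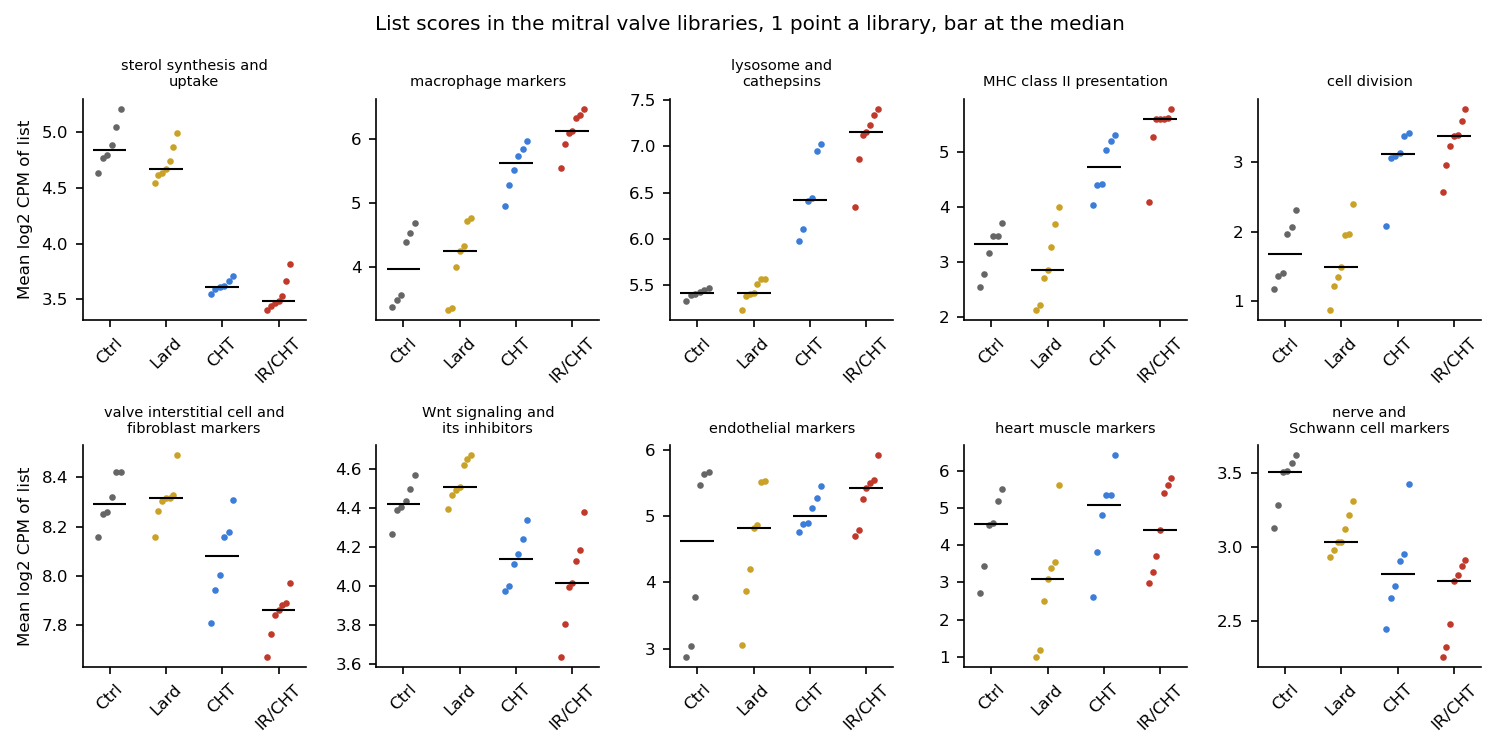
Each panel gives the score of a list, the mean log2 CPM of its tested members, in the 26 mitral valve libraries (1 point a library, bar at the median). The sterol score is 3.40 to 3.81 in IR/CHT against 4.63 to 5.21 in Ctrl, the macrophage and lysosome scores are higher without overlap, the interstitial cell score is lower without overlap, and the endothelial panel shows the 3 Ctrl libraries below 4.

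Of other metabolic genes, none of 25 tested respiratory chain subunits was called (42 listed, median 0.29, against 0.18 without IR/CHT L237, 0.13 without the 3 Ctrl libraries low in endothelium and 0.09 on plate 2 alone); 10 had an edgeR adjusted p under 0.05, all higher and all below the fold limit, led by NDUFA6 (log2 fold 0.57, standard error 0.12, adjusted p = 0.00118 by edgeR). Antioxidant and glutathione genes rose in 4 of 16 tested and fell in 1 (24 listed). CAT (catalase) measured 80.0, 97.8 and 126 CPM in Ctrl and 133, 201.3 and 259.8 CPM in IR/CHT (log2 fold 0.98, standard error 0.14, adjusted p = 9.66e-06 by edgeR), CYBB, the catalytic subunit of the phagocyte oxidase, measured 3.65, 10.5 and 15.7 CPM in Ctrl and 35.1, 47.9 and 89.9 CPM in IR/CHT (log2 fold 2.42, standard error 0.36, adjusted p = 1.44e-05 by edgeR), and NOX4, the constitutive oxidase of stromal cells, fell (log2 fold -0.97, standard error 0.17, adjusted p = 0.000129 by edgeR), a call lost on plate 2 alone. GCLC, which limits glutathione synthesis, was higher by less than the fold required (log2 fold 0.53, standard error 0.15, adjusted p = 0.011 by edgeR). Of the glucocorticoid genes 18.2% were called, near the 17.7% of all genes: 2 of 11 tested fell (15 listed; none on plate 2 alone), TSC22D3, a classical target (log2 fold -0.70, standard error 0.11, adjusted p = 4.21e-05 by edgeR), and NR3C2, the mineralocorticoid receptor (log2 fold -0.99, standard error 0.19, adjusted p = 0.00032 by edgeR), while FKBP5 and HSD11B1 did not pass. SLC46A1, the proton-coupled folate transporter, rose from 1.01, 2.33 and 3.63 CPM to 7.49, 18.0 and 33.1 CPM (log2 fold 3.13, standard error 0.38, adjusted p = 1.26e-06 by edgeR), and SLC19A1, the reduced folate carrier, did not pass (1.01, edgeR adjusted p = 0.233).

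Irradiation added to the cholesterol diet was compared with the diet alone, in IR/CHT against CHT, where 29 of 15322 genes were called (0.189%), 8 higher and 21 lower, with 2007 genes at an unadjusted p under 0.05. The 5 with the smallest p were PRUNE2, ADAMTS6, ITGA2, CYB561A3 and CTSV. PRUNE2, a protein of the BNIP2 and prune family, measured 296, 504 and 692 CPM in CHT and 191.7, 219 and 271.2 CPM in IR/CHT, with a log2 difference of -1.13 (SE 0.16, edgeR adjusted p = 0.00178). ITGA2, a collagen-binding integrin chain, measured 131, 224 and 305 CPM in CHT and 47.9, 94.0 and 116 CPM in IR/CHT (-1.26, SE 0.20, edgeR adjusted p = 0.00561). For both, all IR/CHT libraries lay below all CHT libraries and below all Ctrl libraries. Both were picked for their small p in this contrast, and the share of all genes without overlap between IR/CHT and CHT was not counted. ADAMTS6, a secreted protease, differed by -1.16, CYB561A3, a lysosomal ferrireductase, by 1.26, CTSV, a lysosomal cathepsin, by 0.92, ABI3BP by -0.97 and JCHAIN by 2.26 (edgeR adjusted p = 0.00178, 0.00561, 0.0164, 0.0194 and 0.0484). The count moved with the setting: it was 149 with DESeq2, 1 with only the 2 groups in the fit and 0 on plate 1 alone (1246 at an unadjusted p under 0.05), and the share called ran from 0.0387% (6 genes) without CHT L170 to 1.22% without IR/CHT L175, with 1.03% without CHT L157. All CHT libraries were on plate 1, and the animal numbers of CHT began with L09. No tested member of the sterol, foam cell or macrophage lists passed in this contrast, GPNMB differing by 1.23 (SE 0.35, edgeR adjusted p = 0.126) and SQLE by -0.47 (SE 0.16, edgeR adjusted p = 0.224). Set beside the same Ctrl libraries, which both contrasts share, CHT differed in 861 genes (763 higher and 98 lower).

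The response of the mitral valve was set against that of the aortic valve in the same model, by the difference of the IR/CHT minus Ctrl log2 fold changes. It differed in 2533 of 16166 genes (15.7%), and in 5315 with the rabbit as a block. In all but 35 of the 2533 the aortic valve fold was the one further from 0. TIMP1 had a log2 fold change of 2.89 in the aortic valve, and the mitral minus aortic difference was -2.41 (standard error 0.24, adjusted p = 3.18e-09 by edgeR). HLA-DRA, CD74, CTSB and GPNMB rose in both valves and less in the mitral valve, by -2.46, -1.82, -1.37 and -2.36 on the log2 scale. FN1 was higher in the aortic valve (1.57) and not in the mitral valve, with a difference of -1.55 (standard error 0.27, adjusted p = 0.000171 by edgeR). TBX20 fell in both and by less in the mitral valve, with a difference of 1.505 (standard error 0.27, adjusted p = 0.000226 by edgeR). The heart muscle markers moved with this comparison: their median log2 fold change was -4.23 in the aortic and 0.40 in the mitral valve, 15 of 21 tested genes differed, and the part of muscle tissue in the other differences was not tested.

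Against the tricuspid valve, the inflow valve of the right heart, the response differed in 1519 of 15890 genes (9.56%), and in 2866 with the rabbit as a block. In 1406 of the 1519 the mitral valve fold was further from 0. The folds of the valves had opposite signs, whatever their size, in 917 of the 1519. ANO4 had a log2 fold change of -0.97 in the tricuspid valve (edgeR adjusted p = 0.443), and the difference was 8.05 (standard error 0.60, adjusted p = 1.23e-13 by edgeR). For PLAU the tricuspid value was -0.35 (edgeR adjusted p = 0.642) and the difference 3.19 (standard error 0.30, adjusted p = 2.59e-10 by edgeR). GPNMB had a log2 fold change of 1.49 in the tricuspid valve (edgeR adjusted p = 0.0772), with a difference of 5.71 (standard error 0.60, adjusted p = 4.34e-09 by edgeR). These 3 genes were high in IR/CHT mitral valves and differed from Ctrl by less in the tricuspid valve of the same treatment groups. ABCA1 rose in both valves, by 2.96 in the tricuspid valve, and more in the mitral valve, with a difference of 1.21 (standard error 0.30, adjusted p = 0.00581 by edgeR). TBX20, HAPLN1 and DCN were lower relative to Ctrl in the mitral than in the tricuspid valve, by -1.09, -1.34 and -0.85. The sterol list had a median log2 fold change of -0.99 in the tricuspid and -1.05 in the mitral valve and 2 of 19 tested genes called lower and 1 higher in the mitral valve by the difference.

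**Figure D5:**
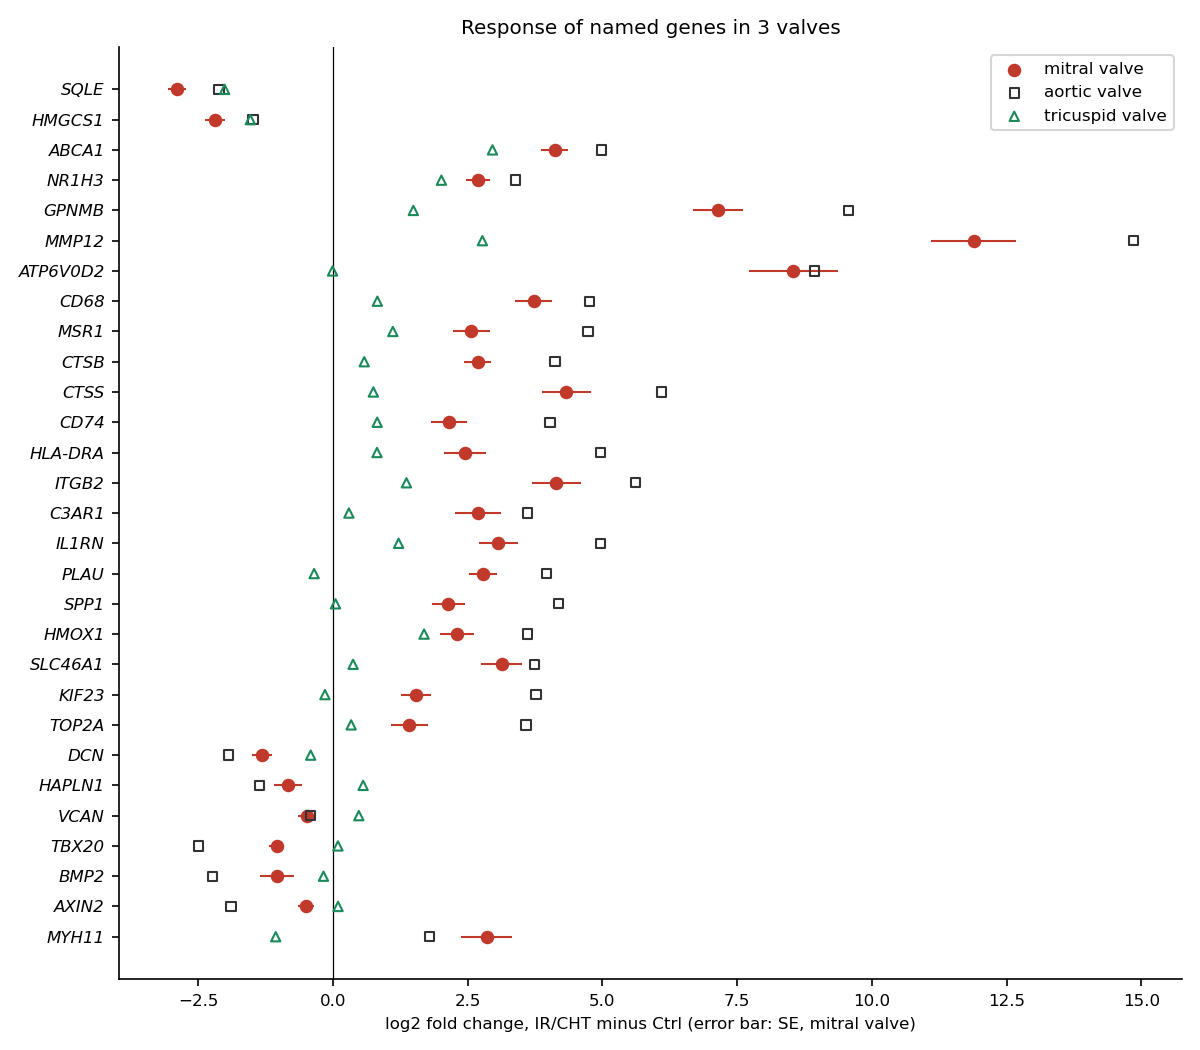
The log2 fold change of IR/CHT minus Ctrl for named genes in the mitral valve (red, with its SE), the aortic valve (squares) and the tricuspid valve (triangles). GPNMB, CTSB and CD74 lie furthest to the right in the aortic valve, then the mitral and then the tricuspid valve, and the sterol genes SQLE and HMGCS1 lie below 0 in all 3.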

How the data were processed

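RNA-seq gene counts of 26 mitral valve libraries were used, and of the aortic and tricuspid valves for the comparison of responses. The authors deposited raw counts per gene, not normalized, in 1 table for each of 2 plates; total RNA was made into stranded libraries, and per the labels bcl2fastq 2.20 and the rabbit build OryCun2.0 were used, with mapping and counting in the nf-core rnaseq pipeline according to the paper's methods. Of 29587 genes 14716 carry a symbol, which is how genes are named here; genes whose near-identical copies could share reads cannot be told apart. Libraries were grouped by the treatment and tissue in the labels. Counts were analysed in R 4.3.3 with edgeR 4.0.16 (filterByExpr, TMM, robust quasi-likelihood fit, two-sided test, Benjamini-Hochberg adjustment over all genes tested), with the 4 treatments of the mitral valve in 1 fit and no covariate. A gene was called at an adjusted p under 0.05 and a fold change above 1.5, and a difference between valves at an adjusted p under 0.05 alone. The spread is between rabbits, 1 library each. CPM values are scaled to TMM-adjusted library sizes, and list scores are the mean log2 CPM (prior count 2) of the tested members.

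The 36 gene lists (862 entries, 620 found by symbol, 551 tested) and the members described were chosen with earlier results of these data known, so no list was given a test of its own. Genes named are the 10 higher and 10 lower with a symbol and the smallest p, in each list the 3 called with the smallest p and key genes marked beforehand in the list, and for the other tests the 5 with the smallest p and the same key genes; the remaining named list members serve to account for the lists. Alternatives were DESeq2 1.42.0, its size factors in edgeR, a fit with all genes kept, one with only both groups of a contrast, plate as a covariate, each plate alone, each library left out in turn, and the rabbit as a block. Leaving out the 3 Ctrl libraries with an endothelial score under 4 was added after seeing the data. The scripts were tested on simulated data. The number in the column headers is shared by libraries of 1 rabbit: deviations from group means in mitral and aortic valve libraries of a rabbit correlated over genes with a median r of 0.460 (26 of 26 rabbits above 0.1), and in mitral and tricuspid valve with 0.299 (19 of 26). The other tissues, and groups with irradiation or vitamin D2 alone, were not analysed here, and some genes of the lists are not reported here. Counting error is only part of the spread between libraries.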

Additional observations from a re-analysis of the deposited data

Results flagged for a closer look

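A library that stands apart was looked for in 74 groups of values, some of which share genes. There were 5 such values, all list scores, in 3 libraries, where chance gives about 1 in 20, or 3.7 in all. IR/CHT L175 had the lowest score of its group for B and plasma cell markers (2.32 against 2.88 to 3.27 in the other 6), MHC class II presentation (4.10 against 5.28 to 5.79) and cytokines and chemokines (1.03 against 2.30 to 2.87). IR/CHT L237 had the highest score for respiratory chain subunits (6.02 against 5.53 to 5.73), and Ctrl L278 for matrix proteases and inhibitors (4.91 against 4.32 to 4.49). No cause was tested.

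The following named genes differed in their IR/CHT response between the mitral and the aortic valve, by the edgeR test of the difference (adjusted p under 0.05), given as mitral minus aortic log2 fold change. Genes of macrophages, lipid uptake and antigen presentation had differences of -3.47 for CD36, -2.94 for LPL, -2.36 for GPNMB, -2.12 for MSR1, -1.99 for SPP1, -2.46 for HLA-DRA, -1.44 for HLA-DMA, -1.82 for CD74, -1.72 for CTSS, -1.37 for CTSB and -1.26 for HMOX1, all above 0 in both valves and lower in the mitral valve. Cytokine genes gave -2.80 for CXCL8, -2.28 for CCL2 and -1.84 for IL1RN. Matrix and protease genes gave -2.41 for TIMP1, -1.55 for FN1 and -1.12 for PLAU. Dividing cells and p53 targets gave -2.17 for KIF23, -2.11 for TOP2A, -0.80 for EDA2R and -0.61 for GADD45A. Genes whose log2 fold change was lower in the aortic than in the mitral valve gave 1.25 for BMP2, 1.45 for AXIN2, 1.505 for TBX20, 1.26 for PDE3A, 1.75 for PRKG1, 2.70 for CNGA2 and 4.09 for TNNC1.

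Between the mitral and the tricuspid valve the differences, mitral minus tricuspid, were as follows by the same test. Genes with the smallest p in the mitral valve and related macrophage genes gave 9.17 for MMP12, 8.59 for ATP6V0D2, 8.34 for NYAP2, 8.05 for ANO4 and 5.71 for GPNMB. Macrophage, lysosomal, lipid and antigen presentation genes gave 2.96 for CD68, 2.29 for CD14, 1.06 for CSF1R, 1.51 for MSR1, 2.93 for CD36, 1.21 for ABCA1, 3.63 for CTSS, 2.16 for CTSB, 1.38 for CD74, 1.69 for HLA-DRA, 2.05 for HLA-DMA, 2.84 for ITGB2, 2.28 for MPP1 and 2.15 for SPP1. Immune mediators and complement receptors gave 3.77 for CXCL10, 1.91 for IL1RN, 2.45 for C3AR1, 2.93 for C5AR1 and 4.49 for JCHAIN. PLAU, the folate transporter gene SLC46A1, the mitotic genes and MYH11 gave 3.19 for PLAU, 2.81 for SLC46A1, 1.74 for KIF23, 1.87 for BUB1 and 3.97 for MYH11. Genes with the lower response in the mitral valve gave -1.34 for HAPLN1, -1.09 for TBX20, -0.91 for VCAN, -0.85 for DCN and -0.64 for TSC22D3.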

How the results depend on the processing

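More genes were called higher than lower in IR/CHT against Ctrl in every alternative run, but some list medians changed sign: elastic fibre and proteoglycan genes to 0.11 on plate 2 alone, endothelial markers to -0.33 there and to -0.26 without the 3 Ctrl libraries low in endothelium, heart muscle markers to -0.11 without those 3 and to -0.08 without IR/CHT L548, ephrins to 0.11 without those 3, to 0.05 on plate 2 alone and to 0.03 without IR/CHT L179, L237 or L195, red cell and platelet markers to -0.09 without IR/CHT L195, and glucocorticoid genes to values up to 0.06 with DESeq2, with its size factors and on plate 2 alone, and up to 0.08 without any 1 of 7 libraries. The count of 2715 was 3037 with DESeq2, 2674 with DESeq2 size factors, 2612 without a filter, 2437 with only the groups compared, 2651 with plate as a covariate, 1891 on plate 1 alone and 1115 on plate 2 alone, where 5 libraries remain; leaving out 1 library gave 2310 to 3163. No named gene changed sign past the threshold. On plate 2 alone 45 named genes lost the call, on plate 1 alone 17, and 19 without the 3 Ctrl libraries low in endothelium; the cause was not tested. Beside those named in the report, the 19 include HAPLN1, IRF4, TNC, ISG15, EPHA7, EPHB1, NPPA and C1QA, while INHBA, COL1A1, PHLDA3 and ICAM1 gained the call. Single libraries decided NPPA, EPHA5, EPHA7 (edgeR adjusted p = 0.0891 without Ctrl L183), EPHB1 (0.0551 without Ctrl L156), BMP2 (0.0631 without Ctrl L156), TNC (0.055 to 0.0692) and C1QA. EPHA5 had an edgeR adjusted p of 0.056 to 0.0743 without any of 6 libraries. Calls were gained by ICAM1 (0.0245 to 0.0443 without IR/CHT L175, IR/CHT L237 or Ctrl L262), SELE (0.0395 without Ctrl L278), GADD45A (without IR/CHT L175, Ctrl L199, Ctrl L241 or Ctrl L278) and GCLC (without IR/CHT L179), beside TNF and CCL2. For IR/CHT against CHT the 29 genes (0.189% of those tested) became 0.591% with DESeq2, 0.0675% without a filter, 0.00691% with only those 2 groups, 0.111% with plate as a covariate and 0% on plate 1 alone (edgeR, 1246 genes at an unadjusted p under 0.05). Leaving out 1 library gave 0.0387% to 1.22%, with 1.03% without CHT L157, 0.717% without CHT L266, 0.0452% without CHT L229, 0.0646% without CHT L245, 0.0711% without CHT L187, 0.0785% without IR/CHT L237 and 0.0851% without IR/CHT L258. For the valves, the rabbit as a replicate block gave 5315 genes against the aortic valve (2701 higher and 2614 lower in the mitral valve) and 2866 against the tricuspid valve (1509 and 1357); the other alternatives gave 1997 to 3210 and 1192 to 1908. At 1 CPM the counting SD of 25.6% limits genes such as CSF3R, IBSP and RUNX2.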

Other observations

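Of the 2715 genes called, 718 have no symbol in the deposited tables (500 higher and 218 lower) and are not described. The mean log2 CPM of macrophage markers ran over 3.37 to 4.69 (median 3.97) in Ctrl, 3.32 to 4.76 (median 4.25) in Lard, 4.95 to 5.97 (median 5.62) in CHT and 5.55 to 6.46 (median 6.12) in IR/CHT. The cell division score ran over 1.18 to 2.31 (median 1.69), 0.87 to 2.40 (median 1.49), 2.08 to 3.42 (median 3.12) and 2.57 to 3.77 (median 3.38) in the same order, and the interstitial cell and fibroblast score over 8.16 to 8.42 (median 8.29), 8.16 to 8.49 (median 8.32), 7.81 to 8.31 (median 8.08) and 7.67 to 7.97 (median 7.86). MYH11 measured 143, 333 and 825 CPM in CHT and 24.7, 38.9 and 71.1 CPM in Lard, so that its CHT and IR/CHT ranges overlapped. TSC22D3 measured 134, 162 and 173.1 CPM in CHT, below its IR/CHT median. JCHAIN measured 2.08, 2.60 and 9.26 CPM in CHT and 5.22, 13.9 and 57.1 CPM in IR/CHT.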
